A study of Mus musculus with 10 samples.

Results

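The regions described here are EZH2 domains of control mouse embryonic stem (ES) cells that had no H3K27me3 peak. A region was included when it was an EZH2 domain on chromosomes 1 to 19 in control library rep1, shared at least 1 bp with an EZH2 domain in control library rep2, and shared no base with an H3K27me3 peak in either control library. Of 7322 rep1 domains, 5001 lay on these chromosomes and 4917 had a rep2 domain. Of these 4917, 74 had no H3K27me3 peak (1.5%), and the other 4843 had one. The 74 domains were thus chosen by the EZH2 domain calls and H3K27me3 peak calls of the 4 control libraries, which are not results here. The ex14D libraries were not used in the choice.

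The study compared ChIP-seq of E14 ES cells (strain label 12910la) that were wild-type, called control here, with E14 cells whose genotype label reads Ezh2-knock out of exon14, called ex14D-Ezh2 or ex14D. The paper describes ex14D-Ezh2 lines made by CRISPR, with an insertion or deletion in exon 14 of Ezh2. The titles of the mutant samples read Ezh2KO, a name that the paper uses for a separate knockout line. Title and genotype label thus differ, and the genotype label was followed here. Each genotype had 2 H3K27me3 libraries, 2 EZH2 libraries and 1 input library, 10 in all. The labels do not say whether rep1 and rep2 were separate cultures, so spread between them may be technical.

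EZH2 is the catalytic subunit of Polycomb repressive complex 2 (PRC2), which places methyl groups on lysine 27 of histone H3. The trimethylated form, H3K27me3, marks repressed chromatin. In ES cells PRC2 is known to sit mainly at CpG islands, stretches rich in G, C and the CG dinucleotide that often cover promoters, and above all at the promoters of developmental regulators that are silent or poised. At the domains followed here an EZH2 domain was called in control cells and an H3K27me3 peak was not. Other methylated forms of lysine 27 were not measured in these libraries.

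Before any value, a few of the sequences are shown, because the 74 domains fell into a large CpG-rich set and a small CpG-poor set. Each is a 250-base stretch of the GRCm38 reference, plus strand, that touches no annotated exon, with every CG in capitals. The stretch at Macrod2 (chr2:140395741-140395990, 46 CG) is shown as a CpG-dense promoter. The stretch at Kank1 (chr19:25237551-25237800, 23 CG) is shown because an H3K27me3 peak reached this domain in both ex14D libraries, where the nearest control peak ended 20 bp away. The stretch from an intron of Sfi1 (chr11:3182321-3182570, 2 CG) is shown because Sfi1 held most of the domains that were found again in both ex14D libraries.
Macrod2: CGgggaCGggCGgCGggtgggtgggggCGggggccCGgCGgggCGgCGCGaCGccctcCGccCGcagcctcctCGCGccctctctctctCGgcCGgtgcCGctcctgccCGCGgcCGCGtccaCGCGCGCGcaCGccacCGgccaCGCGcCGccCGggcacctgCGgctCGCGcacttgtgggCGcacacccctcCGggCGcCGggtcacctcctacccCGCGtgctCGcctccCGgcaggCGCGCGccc
Kank1: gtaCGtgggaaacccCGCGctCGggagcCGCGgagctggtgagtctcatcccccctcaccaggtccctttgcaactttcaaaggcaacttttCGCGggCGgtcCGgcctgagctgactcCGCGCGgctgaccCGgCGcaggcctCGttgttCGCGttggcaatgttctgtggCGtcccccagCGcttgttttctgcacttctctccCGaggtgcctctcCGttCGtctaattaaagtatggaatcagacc
Sfi1 intron: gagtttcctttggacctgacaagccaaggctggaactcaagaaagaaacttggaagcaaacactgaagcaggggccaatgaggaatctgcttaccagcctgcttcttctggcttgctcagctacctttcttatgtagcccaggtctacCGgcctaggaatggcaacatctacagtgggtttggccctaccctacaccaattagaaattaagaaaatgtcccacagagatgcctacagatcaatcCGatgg
The Sfi1 stretch stands apart by eye, with almost no capitals.

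The domains were small in rep1 and scattered. Domain borders lay on a 1000 bp grid, and 61 of the 74 were 1 kb wide and 13 were 2 kb wide, whereas the median width of the domains with a peak was 3000 bp and the widest reached 129000 bp. Because the 74 were all at most 2 kb wide, comparisons below use the 2329 domains with a peak that were at most 2 kb wide, or domains of the same width. The 74 lay on 18 chromosomes, with 9 on chromosome 11 and none on chromosome 18, where 194 domains with a peak lay. Their median distance to the next rep1 domain was 145000 bp, against 101000 bp for the domains with a peak of at most 2 kb. In rep2, 72 of the 74 were covered over their whole width. Many lay in a wider rep2 domain, and the rep2 domains over them were 1 kb to 74 kb wide. The small width therefore describes rep1 only. The 84 rep1 domains that had no rep2 domain included 26 without a peak (31%).

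The 74 depended on where a peak ends and which peaks count. Of the domains, 22 lay within 500 bp of a control H3K27me3 peak, 23 lay more than 500 and up to 10000 bp away and 29 lay farther, with a median distance of 4018 bp and a largest of 1378616 bp. Just inside the rule were the domains at Ccdc71l, Kank1 and Tmem50b, at 4, 20 and 32 bp from a peak. Just outside were those at Dock5, Arhgap32 and Rap2a, which shared 3, 15 and 24 bp with one. With control peaks limited to q under 0.001 the same rule gave 725 domains, and with the rep2 H3K27me3 library left out it gave 293. The word peak therefore means a peak of the deposited lists, and its absence does not mean absence of the mark.

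Most of the 74 covered promoters. A window of 1 kb centred on the 5′ most transcription start site (TSS) of a RefSeq gene was touched by 47 of the domains, and these windows belonged to 52 genes. A further 12 lay on exons outside such windows, 7 in introns and 8 between genes. Among the 2329 domains of at most 2 kb with a peak, the same classes held 1567, 366, 91 and 305. Of the 47 promoter domains, 41 had their centre downstream of the nearest TSS (87.2%), against 79.3% of the promoter domains with a peak, and 37 held coding sequence.

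Of all 24963 annotated genes, 0.208% had such a domain over the promoter window, so a count of 0 in a gene list says little. Of 13 gene lists, 12 had no gene with such a domain. Among them, 117 of 138 homeobox genes and 17 of 19 early mesoderm regulators had a domain with a peak over the promoter window and none had a domain without one. Lists of pluripotency factors, PRC1 and PRC2 subunits, ribosomal proteins and histones also had none without a peak. The exception was the list of signalling genes, with 3 of 160 (1.88%), and 106 with a peak. These 3 were Pdgfc, which encodes a platelet-derived growth factor ligand, and Igf2bp1 and Igf2bp3, which entered that list by their symbols but encode oncofetal RNA-binding proteins. Other genes included transcription factors (Ets2, Cited2, Tfeb), the stem cell RNA-binding ubiquitin ligase Trim71, the kinase Cdk13, the cyclin Ccnj, the histone reader Zmynd11, actin and membrane trafficking genes (Pfn2, Snx9, Whamm) and the polarity gene Pard3.

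By base composition the 74 were richer in CpG than the domains with a peak of similar width. Median GC content was 66.1% against 57.9%, the median observed over expected CpG ratio was 0.83 against 0.59, and the median number of CpG per 100 bp was 9.25 against 4.75. The median share of repeat-masked bases was 8.5% in both. A GC content of at least 50% with a ratio of at least 0.6, the usual criteria for a CpG island, was met by 57 of 74 (77%, exact 95% interval 65.8 to 86), by 1073 of 2329 domains with a peak (46.1%, 44 to 48.1) and by 10776 of 24963 promoter windows (43.2%, 42.6 to 43.8). Among 1 kb domains the counts were 47 of 61 without a peak (77%) and 477 of 867 with one (55%). All 47 promoter domains met the criteria. The densest were Snx9, with 15.2 CpG per 100 bp, and Zmynd11, with 15. These intervals, as all below, cover counting error over regions only, and regions are not replicates of a condition. The share met depended on the rule as well: with peaks limited to q under 0.001, 47.3% of the 725 domains met it.

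**Figure D1:**
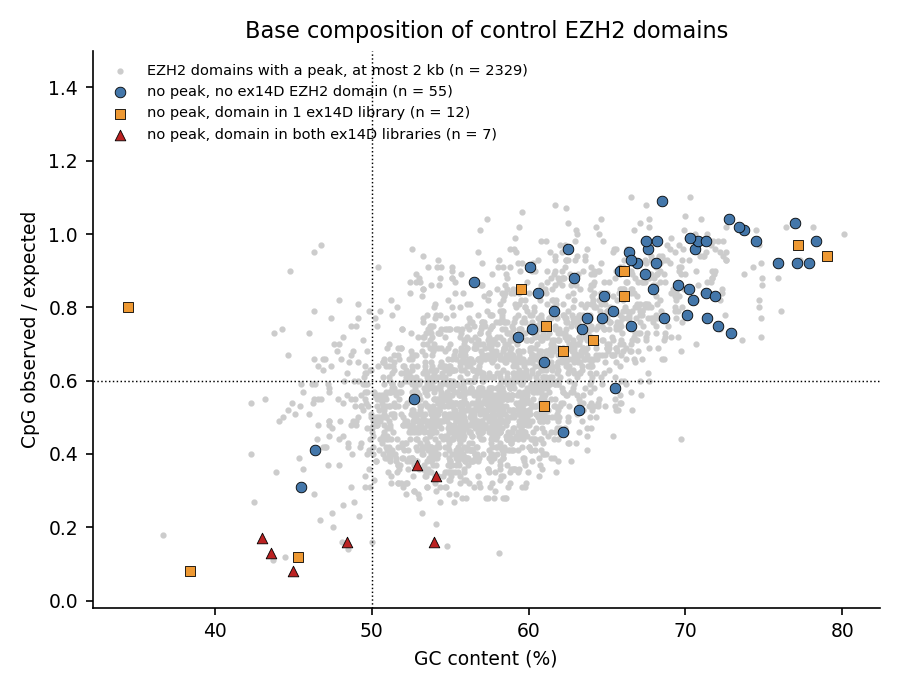
GC content (%, horizontal axis) against the observed over expected CpG ratio (vertical axis) of control EZH2 domains. Grey points are the 2329 domains of at most 2 kb with a peak, coloured symbols are the 74 without one, by whether an ex14D EZH2 domain overlapped them in no library (55), 1 library (12) or both (7), and dotted lines mark 50% and 0.6. The 7 triangles all lie below the ratio of 0.6.

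The other 17 domains were CpG-poor by these criteria, with a median GC content of 48.4%, a median CpG ratio of 0.34 and 34.9% of bases repeat-masked. Of these, 6 lay inside Sfi1, a gene for a centrin-binding protein of the centrosome, between chr11:3142001 and 3196000. They fell within a single rep2 domain of 74 kb (chr11:3126001-3200000) and are not independent of each other. Sfi1 also stood apart in input: its promoter window held 677 control and 597 ex14D input reads, where the median over all genes was 18 in each. Its EZH2 reads were 18696 and 24360 for control against 19349 and 23527 for ex14D, and its H3K27me3 reads 259 and 353 against 746 and 547. Of all 74, 8 domains, 2 of them in Sfi1, had near-identical copies elsewhere in the genome (at least 90% identity over 500 bp of the central 1 kb), among them the 5S rRNA gene n-R5s149 with 51 copies and chr9:3029001-3030000 with 42. Reads at such places cannot be assigned to 1 copy with certainty.

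Short sequence motifs in the central 1 kb were counted next, on both strands, for 8 motifs chosen after the data were seen. The ETS letters CCGGAAGT were in none of the 57 CpG-rich domains (which allows up to 5.26%), in 2.42% of the CpG-rich domains of at most 2 kb with a peak and in 12.1% of CpG-rich promoter windows. The YY1 letters AAGATGGC were in 7 of 57 (12.3%, 5.08 to 23.7), against 3.36% and 10.1%, and in 8 of all 74, at Ccnj, Crybg3, Eif1b, Kif13a, Pfn2, Pptc7, Sri and an intron of Il31ra. The GC box GGGCGGGG of SP and KLF factors was in 25 of 57 (43.9%), against 48.9% and 56.1%. The NRF1 letters GCGCATGC were in 2 of 57 (3.51% against 4.19% and 8.54%), the CREB letters TGACGTCA in 1 (1.75% against 1.96% and 5.11%), the E2F letters TTCCCGCC in 6 (10.5% against 10.1% and 12.2%) and the BANP letters TCTCGCGA in 1 (1.75% against 1.03% and 3.85%). The TATA letters TATAAA were in 3 (5.26% against 14.2% and 17.1%). The GC box and E2F letters can overlap in part. A match describes the letters only, and no match is no statement about a factor.

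In ex14D cells most of the 74 domains were not found again. An ex14D EZH2 domain overlapped 9 of 74 in rep1 (12.2%, exact 95% interval 5.71 to 21.8) and 17 of 74 in rep2 (23%, 14 to 34.2). It did so in both libraries for 7 (9.46%, 3.89 to 18.5), in rep1 only for 2, in rep2 only for 10, and in neither for 55. Over all 4917 reproducible control domains the shares were 67.8% in rep1, 61.4% in rep2, 57.7% in both and 71.5% in at least 1. The ex14D libraries had 3458 and 3335 domains on these chromosomes, against 5001 and 6802 in control. A share is 1 value per ex14D library, so the shares are given as descriptions, with no test over samples.

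The share found again differed with width. Of domains with a peak, those over 2 kb were found again in 92.1% (rep1) and 88.5% (rep2), and those of 1 kb in 22.1% and 17%. Of the 61 domains of 1 kb without a peak, 7 were found in rep1 (11.5%) and 14 in rep2 (23%). Against the 1 kb domains with a peak this was 10.7 percentage points lower in rep1 (interval of the difference -17.2 to 0.0292) and 6 points higher in rep2 (-3.15 to 18.2). At equal width of 1 kb the libraries therefore differed in direction, and neither interval excluded 0. Without the Sfi1 domains the 1 kb differences were -15.1 points in rep1 (-20.3 to -5.09) and 0.589 points in rep2 (-7.58 to 12.6), and only that of rep1 excluded 0. At 2 kb, 2 of 13 (15.4%) and 3 of 13 (23.1%) were found, against 56% and 43% with a peak, with differences of -40.6 points (-51.9 to -13.6) and -19.9 points (-35.1 to 7.35). Without the Sfi1 domains the 2 kb differences were -56 points (-58.5 to -29.9) and -33.9 points (-41.8 to -5.18). Domains with a peak in only 1 control library were found again in 16% (rep1) and 10.3% (rep2) at 1 kb and in 20.2% and 7.14% at 2 kb. Domains with a peak in both control libraries were found in 23.5% and 18.4% at 1 kb, and in 58.1% and 45.2% at 2 kb. The former were closer to the domains without a peak at 1 kb in rep1 and at 2 kb in both libraries. At 1 kb in rep2 the latter were closer, since 23% of the domains without a peak were found. A low share at 2 kb was thus also found at domains with a peak in 1 library.

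Splitting the domains by CpG content, a split made after these calls had been seen, gave different shares. Of the 47 CpG-rich domains of 1 kb, 1 was found in ex14D rep1 (2.13%) and 6 in rep2 (12.8%), where CpG-rich 1 kb domains with a peak were found in 26.2% and 19.9%. The differences were -24.1 points in rep1 (-28.6 to -14.3) and -7.15 points in rep2 (-14.9 to 5.7), so only that of rep1 excluded 0. At 2 kb, 0 and 1 of 10 CpG-rich domains were found, against 60.7% and 50% with a peak, and both differences excluded 0, at -60.7 points (-64.6 to -32.7) and -40 points (-49.1 to -9.32). Of the 14 CpG-poor domains of 1 kb, 6 and 8 were found (42.9% and 57.1%), against 17.2% and 13.3%, with differences of 25.7 points (3.82 to 50.5) and 43.8 points (19 to 65.5). Sfi1 held many of these, since all 6 Sfi1 domains, of either width, were found in rep2 and 5 of 6 in rep1. The Sfi1 domains are not independent of each other, and the intervals of the CpG-poor differences do not allow for this. Of the 11 CpG-poor domains outside Sfi1, of either width, 3 were found in rep1 (27.3%, 6.02 to 61). In rep2, 4 of the 11 were found (36.4%, 10.9 to 69.2). These 2 intervals include the 17.2% and 13.3% of the 1 kb CpG-poor domains with a peak.

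**Figure D2:**
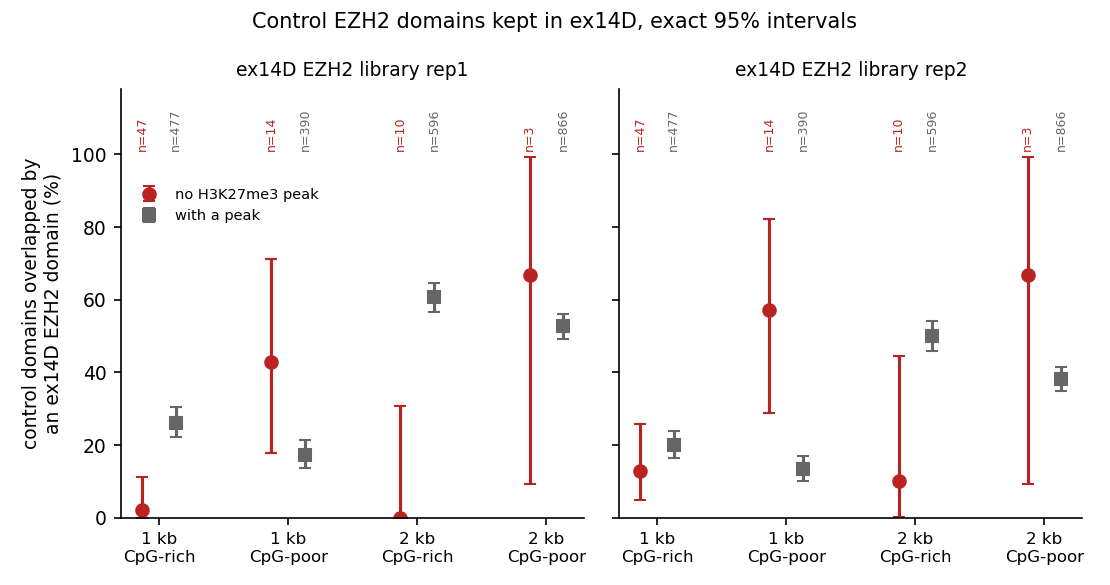
Share of control EZH2 domains overlapped by an ex14D EZH2 domain (%, vertical axis), by width and CpG content (horizontal axis), in ex14D rep1 (left) and rep2 (right). Circles are domains without a peak and squares those with one, bars are exact 95% binomial intervals and n is the number of domains. CpG-rich circles lie below their squares in both libraries, and 1 kb CpG-poor circles lie above theirs.

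The 7 domains found in both ex14D libraries were 5 of the Sfi1 domains, 1 on a noncoding exon of the pseudogene Pisd-ps2 (chr17:3077001-3078000) and 1 between genes at chr16:98107001-98108000. The last has 34 near-identical copies and Pisd-ps2 has 2. Among the 62 domains outside Sfi1 and without such copies, 1 was found in rep1 (Kcnk1, a potassium channel), 8 in rep2 and 0 in both, which allows a share of up to 4.84%. Among the 57 CpG-rich domains the count in both was likewise 0 (up to 5.26%), and so it was among the 47 promoter domains (up to 6.38%), of which 1 and 6 were found.

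The 10 domains found in rep2 only included promoters of Atn1 (a transcriptional corepressor), Klhl42 (a ubiquitin ligase adaptor), Pard3 (cell polarity), Cited2 (a transcriptional coregulator), Cdk13 (a transcription kinase) and Kank1 (a regulator of the actin cytoskeleton), and a coding exon of Lrrn4, a leucine-rich repeat protein of neurons. The others were chr9:3029001-3030000, chr15:21656001-21657000 and the remaining Sfi1 domain. In each of the genes named the overlap was 1000 bp, which is the whole domain except at Pard3, where it was 1000 of 2000 bp. Macrod2, Snx9, Pfn2, Igf2bp1, Igf2bp3 and Pdgfc were found in neither library. The named rule for the widest domains gave 13 ties at 2 kb. Those found in at least 1 library were 2 in Sfi1 and Pard3, and the other 10 were found in neither, those at Aplp2, Igf2bp3, Kif13a, Lrba, Mocs3, Pdgfc, Tnrc18, Trim71 and Trim8 among them.

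H3K27me3 peaks were also rare at the domains in ex14D. A peak overlapped 12 of 74 in ex14D rep1 (16.2%, 8.67 to 26.6) and 4 in rep2 (5.41%, 1.49 to 13.3), and 13 in at least 1 library (17.6%, 9.7 to 28.2), where it did so for 94.7%, 90.1% and 95.1% of all 4917 domains. Nearly all of the 4917 had a control peak, whereas the 74 were chosen to have none. The ex14D libraries had 14131 and 9233 peaks on these chromosomes, control 12100 and 19639. Peaks in both ex14D libraries were found at 3 domains (4.05%, against 89.7% of the 4917), namely Lrrn4, Kank1 and chr14:6427001-6428000 (nearest gene Gm3411), and 61 domains had none.

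The peaks differed in strength, given as the fold enrichment of the peak caller. This fold is 1 value for a whole peak, and a peak could reach beyond the domain. At Lrrn4 it was 18.53 and 20.27 in rep1 and rep2, for peaks of 2436 and 1887 bp that shared 322 and 340 bp with the domain. At Kank1 it was 12.34 and 21.96, for peaks of 4605 and 1503 bp that shared all 1000 bp of the domain in rep1 and 67 bp in rep2. At chr14:6427001, a sequence with 38 near-identical copies, it was 3.18 and 4.64. The peaks at Lrrn4 and Kank1 were thus above the median over all peaks of these libraries (4.79 and 5.54), and those at chr14:6427001 were below it. Control peaks lay 335 bp from the Lrrn4 domain and 20 bp from the Kank1 domain.

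Of the domains with a peak in 1 ex14D library, a region near Nr4a1, a nuclear receptor gene, lay 12072 bp from the nearest control peak. Its ex14D peak was 1766 bp wide with a fold of 10.74, and covered all 1000 bp of the domain. A coding exon of Tnrc18, 20279 bp from a control peak, shared 1745 bp with a peak of 1937 bp and a fold of 8.61. The Ccnj promoter, 169 bp from a control peak, shared 1000 bp with a peak of 2801 bp and a fold of 5.3. Values at Crybg3 (4.45), n-R5s149 (3.74) and Kcnk1 (3.05) were lower, and the 3 Sfi1 peaks had 1.05, 1.06 and 1.09. By distance to a control peak, an ex14D peak was found at 6 of 22 domains within 500 bp, 3 of 23 at more than 500 and up to 10000 bp and 4 of 29 farther away. An ex14D EZH2 domain was also found at 7 of the 13 domains with an ex14D peak.

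**Figure D3:**
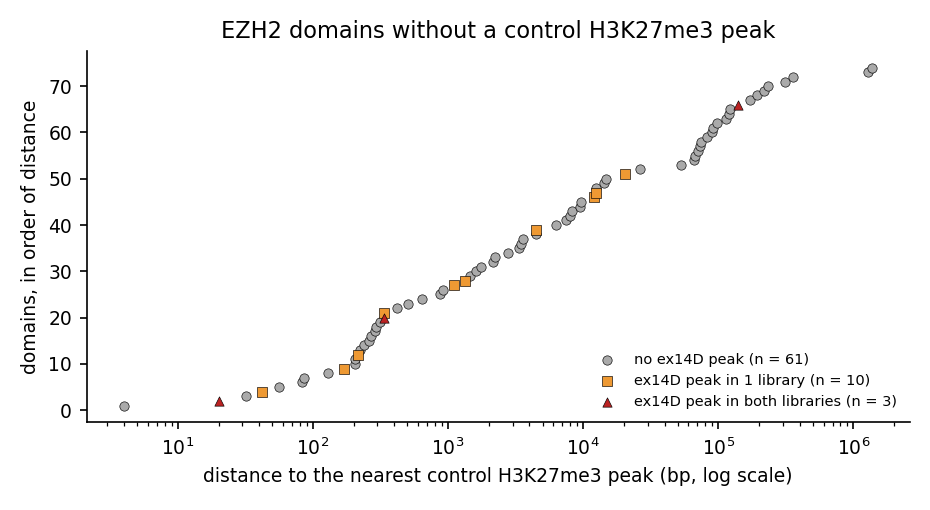
The 74 domains in order of their distance to the nearest control H3K27me3 peak (bp, log scale, horizontal axis; rank on the vertical axis), marked by ex14D H3K27me3 peaks in no library (61), 1 library (10) or both (3). Domains with ex14D peaks occur at short and at long distances.

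Below the level of peaks, H3K27me3 reads at the promoters could be set against input. In the 44 promoter windows with at least 5 input reads on average, the median log2 ratio of H3K27me3 over input (pseudocount 0.5 CPM) was compared with that of all 21023 such promoters. Scaled by reads in promoter windows, it differed from the all-promoter median by 0.44 and 0.74 in control rep1 and rep2, and by 0.08 and -0.21 in ex14D rep1 and rep2. Scaled by all counted reads the differences were 0.29, 0.50, 0.05 and -0.13. In control, 35 of 44 promoters lay above the all-promoter median in each library, and in ex14D 24 and 17 did (18 in rep2 with the other scaling). The 1519 promoters of domains of at most 2 kb with a peak were 1.88 to 2.70 above it in control and 1.69 to 2.53 in ex14D.

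In control, the gap to the promoters of domains with a peak restates the choice, since peaks of these control libraries decided the groups. The position above the all-promoter median does not restate it, since the choice left out domains with a control peak. It still comes from libraries that were used in the choice. In both ex14D libraries, which were not used in the choice, the promoters without a peak were nearer to the all-promoter median, or below it, than in both control libraries. Both H3K27me3 libraries of a genotype were set against the same single input, so the values of a genotype are not independent. Median input reads at promoters of the genes were 16 in control and 19.5 in ex14D, and 18 in each over all genes. How much of the lower ratio in ex14D came from the input was not tested. The sign of the ratio itself depended on the scaling: the median was -1.14 and -0.91 in control with reads in promoter windows and 0.27 and 0.49 with all counted reads, so no statement on enrichment over input is made. The median promoter of the genes held 10 and 19 H3K27me3 reads in control, 16.5 and 12 in ex14D, and 16 and 19.5 input reads, and counts this low limit what can be seen at a single gene.

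**Figure D4:**
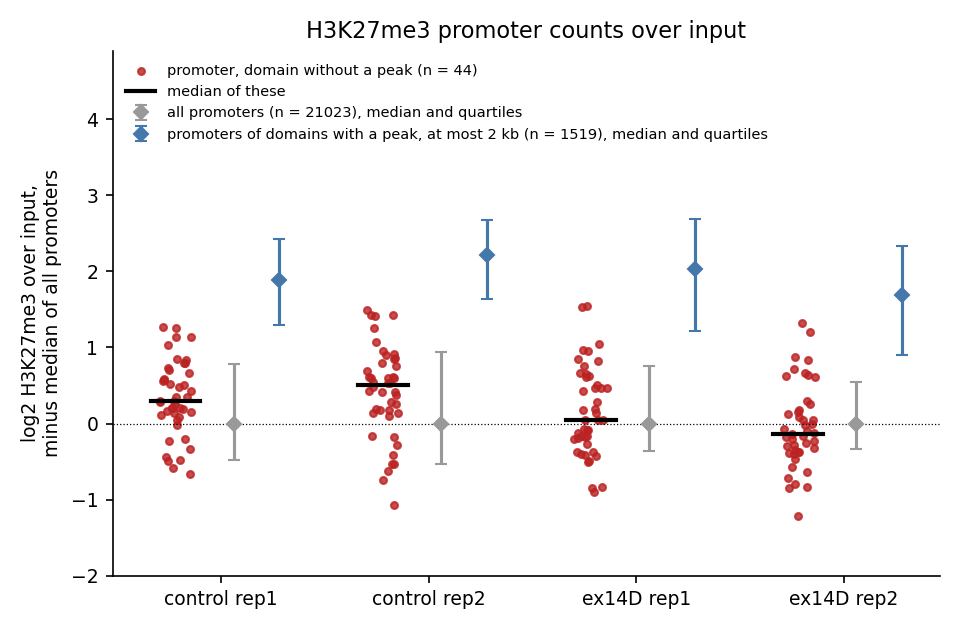
Log2 of H3K27me3 over input in promoter windows minus the median of all promoters (vertical axis), scaled by all counted reads, in each H3K27me3 library (horizontal axis). Points are the 44 promoters of domains without a peak with their median as a black bar; diamonds with bars give median and quartiles of all 21023 promoters (grey) and of the 1519 promoters of domains of at most 2 kb with a peak (blue). The black bar lies at 0.29 and 0.50 in control and at 0.05 and -0.13 in ex14D.

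Depth limited these counts in different ways. H3K27me3 libraries held 594289 to 1450937 reads in promoter windows, inputs 409371 and 416778, and EZH2 libraries 13628137 to 18403892 reads on genes. EZH2 counts followed gene length, so they describe whole genes rather than the 1 kb or 2 kb domain. Of the 52 genes, 50 were matched to the count tables, and 16 of these were listed at 0 in all 4 EZH2 libraries, Igf2bp1 among them, as were 43.2% of all 24500 genes. A listed 0 was not read as absence of EZH2.

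H3K27me3 counts in ex14D against control were tested with edgeR (quasi-likelihood, Benjamini-Hochberg over all 14883 genes tested, threshold 0.05). The scaling between libraries set the typical gene near no change, so a loss shared by all genes could not show. The paper reports lower EZH2 protein and lower H3K27me3 by Western blot in its ex14D-Ezh2 lines. Lower and higher, here and for EZH2 below, are therefore relative to all genes. Of 42 genes tested, 3 were lower and 0 higher (7.14% lower, against a background over all genes of 3.19% lower, 5.85% higher and 9.04% in either direction). At an unadjusted p under 0.05 edgeR found 8 of the 42, and 3061 of all 14883, so the share was near that over all genes. DESeq2 called none, but 30 of the 42 genes had no DESeq2 adjusted p and could not be called. Its background was 3.24% lower, over 6227 genes. At an unadjusted p under 0.05 DESeq2 found 3 of the 42, and 1752 of all 14883, so the share was no higher than over all genes. With libraries scaled by size only, 11 of the 42 were lower, and over all genes 2176 were lower and 398 higher, where the reported scaling gave 475 and 871. The 3 lower were Lrba, a vesicle trafficking protein, Igf2bp3 and Pfn2, an actin-binding profilin. Because the absence of a control peak chose the members, these counts describe the genes and are no evidence of a change that is particular to them.

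At Lrba the promoter window held 24 and 29 H3K27me3 reads in control and 16 and 6 in ex14D, or 36.6, 27.3, 13.2 and 5.97 CPM after scaling. Its log2 change was -1.65 (SE 0.40, edgeR adjusted p 0.00805), and the groups did not overlap. At Igf2bp3 the reads were 16 and 20 against 12 and 4, or 24.4 and 18.8 against 9.91 and 3.98 CPM. Its log2 change was -1.54 (SE 0.47, adjusted p 0.0367 in edgeR). At Pfn2, named here because it passed the threshold although it is outside the naming rule, reads of 23 and 28 against 18 and 12 gave 35 and 26.4 against 14.9 and 11.9 CPM and a log2 change of -1.14 (SE 0.37, edgeR adjusted p 0.0498). Each of these calls was lost when some library was left out: Lrba without control rep2 or ex14D rep2, Igf2bp3 without control rep1, control rep2 or ex14D rep2, and Pfn2 without any one of the 4 libraries. None of the 3 was called without control rep2, and with genes assigned by the nearest TSS within 10000 bp Sfi1 was also called, as higher.

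The other large falls did not pass the threshold. They were Pptc7, a mitochondrial phosphatase, at -1.39 (edgeR adjusted p 0.0524), Cibar1 at -1.24 (0.0508) and Heca at -1.20 (0.127). The largest positive values were at Ccnj (0.61), Kank1 (0.57) and Eif1b (0.34), with adjusted p of 0.338, 0.357 and 0.649, and these were the only 3 genes with both ex14D libraries above both controls. At Kank1, whose ex14D peaks are described above, CPM were 33.5 and 32 in control and 52 and 44.8 in ex14D. At Ccnj they were 22.9 and 39.5 against 50.4 and 47.8. The signalling list gene Pdgfc had -0.53 and Igf2bp1 had 0.39, and the groups overlapped for both.

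As a group, 30 of 42 genes had a log2 change below 0 (71.4%, against 51.6% of all genes tested), with a median of -0.38 against -0.02 for all genes. Both ex14D libraries were below both controls in 17 (40.5% against 25.8%) and above in 3 (7.14% against 23%). The median over all genes moved from -0.02 to -0.47 when libraries were scaled by their size only, and that of the 42 to -0.83, so relative to all genes the difference was similar and the level was not.

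Relative to all genes, EZH2 log2 changes in ex14D were below 0 at the short genes and close to 0 at the long ones. EZH2 domains of the same control libraries chose these genes. The counts therefore describe the genes and are no evidence of a change that is particular to them. The 34 genes tested were not all those of the H3K27me3 test, and 27 were in both. Of 34 genes tested among 13401, 1 was lower in ex14D and 0 higher (2.94% lower, against a background over all genes of 7.88% lower, 0.0522% higher and 7.93% in either direction). At an unadjusted p under 0.05 edgeR found 6 of the 34, and 2144 of all 13401, so the share was near that over all genes. DESeq2 called the same gene alone, against 6.21% lower over all genes. Of the 34, 19 were below 0 (55.9%, against 45%). The median log2 change was -0.02, against 0.02 over all genes. Both ex14D libraries lay below both controls in 10 genes (29.4%, against 23%) and above in 7 (20.6%, against 24.2%). The gene called lower was Mocs3, a molybdenum cofactor synthesis gene, with 74 and 108 reads in control and 41 and 53 in ex14D. Its log2 change was -0.89 (SE 0.17, edgeR adjusted p 0.0183). It lies below the level of the naming rule, its promoter window lies in the same domain as those of Dpm1, listed at 0 in all 4 EZH2 libraries, and Gm20716, with 38, 39, 39 and 38 reads (log2 change 0.06), and the call was lost without control rep1 (0.176) or control rep2 (0.251), where no gene of the whole table was called. Without ex14D rep1 the median log2 change of the genes was -0.03, against 0.00 over all genes.

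Because the counts run over the gene, the genes were also split by annotated length, after the values were seen. The limit that control EZH2 domains chose the genes holds here too. All 7 genes under 10 kb had a log2 change below 0, with a median of -0.52, where 53.6% of all tested genes of that length were below 0 with a median of -0.03. Besides Mocs3 these were Otud1, a deubiquitinase (-0.64, SE 0.18, edgeR adjusted p 0.0947), the noncoding Lppos (-0.56) and Gm3230 (-0.52), Ccdc71l (-0.48), Pfn2 (-0.10) and Eif1b (-0.07), and Mocs3 alone passed the threshold. Otud1 and Gm3230 share a domain. At Otud1 the reads were 61 and 95 for control against 45 and 51 for ex14D. Of 18 genes of 10 to 100 kb, 11 were below 0 (median -0.02), and of 9 longer genes 1 was (median 0.04). Over all tested genes of these lengths, 41.7% and 33.5% were below 0. The genes of domains of at most 2 kb with a peak had medians of -0.48, -0.10 and 0.02 in the same length classes. Of the 161 short genes with a peak, 155 were below 0 (96.3%), so a fall at short genes was not particular to domains without a peak. Of these 161, 67 were called lower (41.6%), where 1 of the 7 without a peak was (14.3%). Over all tested genes under 10 kb, 10.2% were called lower.

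Among the genes that met the naming rule, which asks for an average log2 CPM of 3 and left out all 7 short genes, the largest negative values were at Atn1 (-0.21, SE 0.08), Zmynd11 (-0.15, SE 0.05), Kcnk1 (-0.11), Igf2bp3 (-0.06) and Klhl42 (-0.05), and none passed the threshold. The largest positive values were Aplp2 and Cdk13 (0.07 each), Galnt2 and Pard3 (0.06 each) and Macrod2 (0.05), and none passed either. At Atn1, EZH2 CPM after scaling were 19.2 and 19.5 in control and 16.9 and 16.5 in ex14D. At Macrod2, where the domain was not found in ex14D, they were 1627 and 1621 against 1667 and 1699.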

How the data were processed

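ChIP-seq was analysed in control and ex14D E14 ES cells, grouped by genotype and antibody. Per the labels the build was mm10 and the tools named were Trimmomatic, Bowtie2, MACS2, ChIPseeker and HTSeq. The authors deposited whole read counts per gene without normalization, EZH2 domains of hiddenDomains as positions only, and MACS2 broad peaks of H3K27me3 per library, with fold enrichment (a ratio) and −log10 p and −log10 q as deposited by the peak caller. The control sample of MACS2 is not given in the sources used here. The H3K27me3 hiddenDomains tables were not used here, because their positions belong to another assembly. Rows that name no gene stayed out of library sizes, and gene rows held 5.65% to 7.58% of counted reads in H3K27me3 libraries, 43.9% to 44.3% in EZH2 libraries and 1.9% to 1.92% in inputs.

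Domains and peaks were compared by an overlap of 1 bp. Sequence, CpG counts and positions came from GRCm38.p6 with its RefSeq annotation, and near-identical copies from megablast (BLAST 2.17.0, word size 64). Shares carry exact Clopper-Pearson intervals at 95%, a count of 0 allows up to 3 counts, and differences carry Newcombe intervals. Counts were tested with edgeR 4.0.16 in R 4.3.3 (TMM, filterByExpr, quasi-likelihood), separately per antibody, with DESeq2 1.42.0 as alternative. Approximate standard errors were taken as the log2 change over the square root of F. The procedure was tested on simulated data. Other alternatives were the scaling, the filter on low counts, the replicate block, the assignment to genes, the peak and overlap thresholds and each library left out.

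The regions and gene lists were chosen with earlier results of these data known. Genes were named per antibody when among the 5 most negative or 5 most positive log2 changes, provided that all 4 pairs of libraries had 1 direction and the average log2 CPM reached 3, or when on a list. The named regions were the 5 widest, those with an ex14D peak in both libraries and the 3 nearest to the limit on each side. The split by CpG content, the widths, the copies, the domains of Sfi1, the distance classes, the gene length classes, the printed stretches and the motifs were chosen after the values were seen. The 74 domains were fixed by the rule and not trimmed. Values of 1 domain and 1 sequence are not reported here.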

Additional observations from a re-analysis of the deposited data

How the results depend on the processing

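The number of domains moved with the rule. It was 48 with no control peak within 1 kb, 35 within 5 kb and 725 with peaks of q under 0.001, and 100 to 632 with 1 control library left out (632 without EZH2 rep1, 293 without H3K27me3 rep2). The share found again in both ex14D libraries was 3.85% when rep2 gave the domains, 43% with peaks of q under 0.001 and 0.791% to 23% with a library left out (control EZH2 rep1 and ex14D EZH2 rep1). Chosen after the data were seen, it was 2.94% outside Sfi1, 0% outside Sfi1 without copies, 0% among CpG-rich and 41.2% among CpG-poor domains. The share with an ex14D H3K27me3 peak was 84.8% with control peaks of q under 0.001, 8.11% when a peak had to cover at least 50% of the domain, 29.4% among CpG-poor domains and 5.41% to 55.6% with a library left out (ex14D H3K27me3 rep1 and control H3K27me3 rep2, and 6.17% without control EZH2 rep1). EZH2 calls were 2 with library size only and 0 to 4 with a library left out. H3K27me3 calls were 11 with library size only, 0 with DESeq2 (30 of 42 genes then had no adjusted p), 5 with any count kept and 0 to 2 with a library left out (0 without control rep2). The H3K27me3 median was -0.83 with library size only and -0.55 to -0.27 with a library left out. The EZH2 median was -0.05 to -0.03 with a library left out. With library size only it turned to 0.02, against 0.06 over all genes, and Macrod2 was called higher beside Mocs3. The replicate numbers did not pair the libraries (correlation of deviations -0.02 for EZH2 and -0.09 for H3K27me3), and a replicate block gave 1 EZH2 and 3 H3K27me3 calls, with Cibar1 in place of Pfn2 (adjusted p 0.0548 in edgeR). Direction turned at Pdgfc for EZH2 (-0.02 without control rep2 or ex14D rep1, up to 0.04 without control rep1) and H3K27me3 (0.18 without control rep1, down to -1.21 without control rep2), and at Eif1b (-0.11) and Igf2bp1 (-0.05) for H3K27me3 with library size only. Of 200 alternatives for 23 named gene results, 172 kept call and direction. The cause of these moves was not tested. H3K27me3 depth, with a median of 10 to 19 reads per promoter, limits what single genes can show.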
